A study of Lens culinaris with 50 samples.

Results

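The seed coat of lentil (Lens culinaris, cultivar CDC Gold) was compared between the late bent stage and the mature stage, the last step of a series that follows seed development by the form of the embryo. The 4 libraries of this step were chosen by their labels alone, 2 from the late bent seed coat and 2 from the mature seed coat, out of 50 libraries of embryo, seed coat and whole seed at 8 stages and of the unfertilized ovule. The labels give the same cultivar for all samples and name no genetic change or drug. Plants grew in long days, and their flowers were emasculated and pollinated to time the seeds. The seed coat sample was what remained once the embryo had been picked out under a microscope, so it may hold other tissues that surround the embryo. The stages carry no age in days, and nothing in the labels says how many seeds or plants went into a library. The same step in the embryo and in the whole seed, with 4 libraries each, served for comparison.

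The seed coat is maternal tissue that grows from the integuments of the ovule. In legumes it passes sugars and amino acids from the mother plant to the filling embryo, and it lays down the pigments, phenolic compounds and thickened walls that protect the dry seed. Towards maturity the transport ends, and the coat dries while many of its cells die. In bulk tissue of this kind, fewer cells of a type and less RNA per cell cannot be told apart. The table gives gene identifiers without names or functions, so genes are described here by level, timing and tissue, and the markers that define a seed coat could not be looked up.

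Levels are given in normalized reads, which are read counts divided by 1 factor per library. The 4 libraries held between 20852288 and 34855251 reads assigned to genes. The late bent libraries lacked any read for 30.3% (replicate 1) and 41.1% (replicate 2) of the 58243 genes in the table, and the mature libraries for 28.6% (replicate 1) and 14.3% (replicate 2). Mature replicate 2 thus detected many genes that replicate 1 did not: 10019 genes had reads in replicate 2 alone, with a median of 2 reads, and 1677 in replicate 1 alone. Of the 10019 genes, 689 were abundant enough to be tested. The demand that both mature libraries lie above both late bent libraries bars all of these from being called higher at maturity, and without that demand 0 were called. The Spearman correlation across the tested genes was 0.971 between the late bent replicates and 0.962 between the mature replicates, and lay between 0.916 and 0.953 across the stages. The highest of these was between late bent replicate 2 and mature replicate 1.

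Between the late bent and the mature stage some transcripts of the seed coat fell and others rose. The set that fell held the larger share of the reads, though the median levels of the 2 sets were similar. Of 29440 genes tested, 1226 were higher at maturity (4.16%) and 1369 were lower (4.65%), together 8.81%. Each of these passed an adjusted p of 0.05 and a fold of 2 in limma, and both mature libraries lay on the same side of both late bent libraries. They are called risers and fallers below. Without the demand for agreement of the replicates the counts were 1229 (4.17%) and 1377 (4.68%). The median change was 4.85-fold among risers and 4.28-fold among fallers. A total of 124 risers and 159 fallers changed by at least 16-fold.

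The median riser stood at 50.2 and 64.2 normalized reads in the late bent libraries and at 325 and 304 in the mature libraries. The median faller stood at 438 and 282 in the late bent libraries and at 64.1 and 63.2 in the mature libraries. The median absolute difference between replicates on the log2 scale was 0.51 at late bent and 0.44 at maturity among risers, and 0.51 and 0.46 among fallers. Across all tested genes the median change was 0.19 on the log2 scale, and it was 0.12 lower with TMM scaling and 0.14 lower with quantile scaling.

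The counts depended on single libraries. Without late bent replicate 1 there were 669 risers and 698 fallers, and without mature replicate 2 there were 712 and 976. Without the 8 libraries of the series that had far fewer genes at 0 than their replicate, which leaves 1 library at each stage, there were 721 and 832, and 560 and 708 of these were among the risers and fallers above. A core of 358 risers and 562 fallers was called with all libraries and again without each of the 4 libraries in turn. Fallers outnumbered risers in the main test, but risers were in excess without mature replicate 1 (1430 and 1325), with no filter on low values (2707 and 1401), with a pseudocount of 8 (1557 and 1524) and in a fit of the 4 libraries alone (1218 and 1198).

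**Figure D1:**
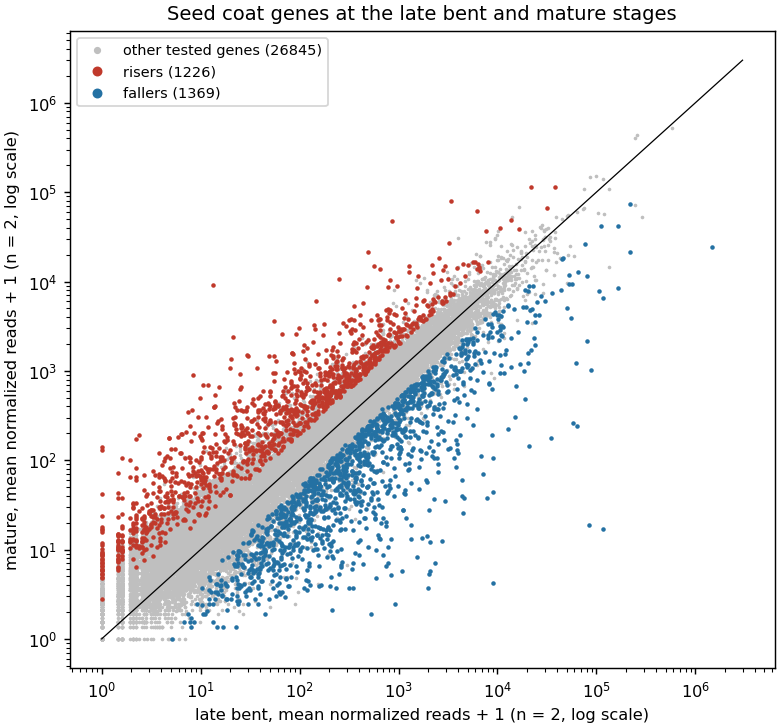
Mean normalized reads plus 1 of each tested gene in the late bent (x axis) and mature (y axis) seed coat, both on log scales, with 2 libraries a stage. The 1226 risers lie above the line of equal levels and the 1369 fallers below it, and the point farthest to the right among the fallers is Lcu.2RBY.4g013650.

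Fallers weighed more in the messenger RNA pool than risers did. They supplied 22.9% and 20.7% of all normalized reads in the late bent libraries, and 3.90% and 3.22% in the mature libraries. Risers went from 1.64% and 2.21% to 8.81% and 8.50%. Calls were most frequent among abundant genes. Abundance here is the mean of the same 4 libraries that the calls compare, so nothing is read from the shares that follow. Of the 293 tested genes with a mean of at least 10000 normalized reads over the 4 libraries, 49 fell (16.7%) and 21 rose (7.17%), whereas among 7095 genes with a mean under 10 normalized reads 40 fell (0.564%) and 125 rose (1.76%).

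The 10 most abundant genes held 14.3% of the normalized reads in each late bent library, and 8.52% and 10.5% in the mature libraries. Of the late bent share, Lcu.2RBY.4g013650 alone made up 5.11% and 5.78% of the reads. By their means, 5 of the 10 most abundant late bent genes fell and 0 rose, and 2 of the 10 most abundant mature genes were risers. A list of the highest late bent genes favours fallers, and one of the highest mature genes favours risers. Nothing is therefore read from these counts. The lists of the 2 stages shared 3 genes, Lcu.2RBY.5g059060, Lcu.2RBY.2g010940 and Lcu.2RBY.4g074460, which are named here after their values were seen. Lcu.2RBY.5g059060 stood at 693973 and 466495 normalized reads at late bent and at 356654 and 699165 at maturity. Its libraries overlapped between the stages, and the test found no change (log2 fold change -0.19, SE 0.83, adjusted p = 0.915).

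Lcu.2RBY.4g013650 was the most abundant gene of both late bent libraries, with 1429011 and 1549833 normalized reads, or 5.11% and 5.78% of the pool. In the mature libraries it stood at 33562 and 15252, or 0.135% and 0.0671%. The 2 stages did not overlap, and the fold between the means was 61.0 (log2 fold change -6.04, SE 0.76, adjusted p = 1.43e-06). It was present earlier too, and supplied between 0.199% and 0.416% of the seed coat reads at each stage from zygote to torpedo, then 0.932% and 1.92% at early bent. Its share at maturity was below all of these.

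Among called genes Lcu.2RBY.5g073600 had the next largest loss in mean normalized reads, from 219917 and 215407 normalized reads at late bent to 28023 and 14703 at maturity (log2 fold change -3.42, SE 0.86, adjusted p = 0.00832). Unlike the gene above, it was nearly silent in the young seed coat, with at most 33.6 normalized reads in any library from zygote to heart. It first appeared at torpedo, with 8903 and 563. The call was lost without late bent replicate 1 (log2 fold change -3.41) and without mature replicate 2 (-2.96). It was also lost without the 8 libraries with few genes at 0 (-2.94).

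Among genes with at least 100 normalized reads in both libraries of the higher stage, the steepest falls were those of Lcu.2RBY.5g059610 and Lcu.2RBY.1g059080. Lcu.2RBY.5g059610 went from 75048 and 156373 normalized reads to 18.5 and 13.1, a fold between means of 7323 (log2 fold change -12.67, SE 0.50, adjusted p = 1.78e-17). Lcu.2RBY.1g059080 went from 70023 and 98659 to 25.7 and 9.80, a fold between means of 4757 (log2 fold change -12.26, SE 0.65, adjusted p = 1.56e-14). Both genes thus dropped from among the abundant transcripts to between 9.80 and 25.7 normalized reads within 1 step. Their earlier course differed. Lcu.2RBY.5g059610 was present in every seed coat library from zygote to late bent, at 145 normalized reads or more. In contrast, Lcu.2RBY.1g059080 had at most 1.12 before torpedo and climbed to 4124 and 14523 at early bent.

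The steepest rises were those of Lcu.2RBY.2g057510 and Lcu.2RBY.4g045990. Lcu.2RBY.2g057510 stood at 14.7 and 10.2 normalized reads at late bent and at 9406 and 9044 at maturity, a fold between means of 740 (log2 fold change 9.44, SE 0.90, adjusted p = 5.69e-09). It had at most 35.3 normalized reads in any earlier seed coat library. Lcu.2RBY.4g045990 had 0 reads in both late bent libraries and 159 and 152 reads at maturity, or 113 and 166 normalized reads. Against a floor of 3 counts per library this is at least 42.2-fold higher (adjusted p = 7.93e-10 in limma and 0.169 in DESeq2).

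Among called genes, the largest gains in mean normalized reads came from genes that were already abundant. Lcu.2RBY.3g074300 rose from 23767 and 19941 normalized reads to 93131 and 134240, a fold between means of 5.20 (log2 fold change 2.36, SE 0.58, adjusted p = 0.00647). Its seed coat level was also high once before, at torpedo, with 7875 and 30421. The call was lost without late bent replicate 2 (log2 fold change 2.23) and without mature replicate 2 (2.10). Dropping the 8 libraries low in genes at 0 also cost the call (2.22). So did library weights (adjusted p = 0.0542 in limma). The call held in 13 of the 17 alternatives tried for this gene. Lcu.2RBY.7g071920 rose from 31470 and 45421 to 142583 and 88889, a fold between means of 3.01 (log2 fold change 1.57, SE 0.29, adjusted p = 0.00028). It had stayed between 5902 and 10267 in all seed coat libraries up to early bent, and so climbed over the last 2 steps.

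**Figure D2:**
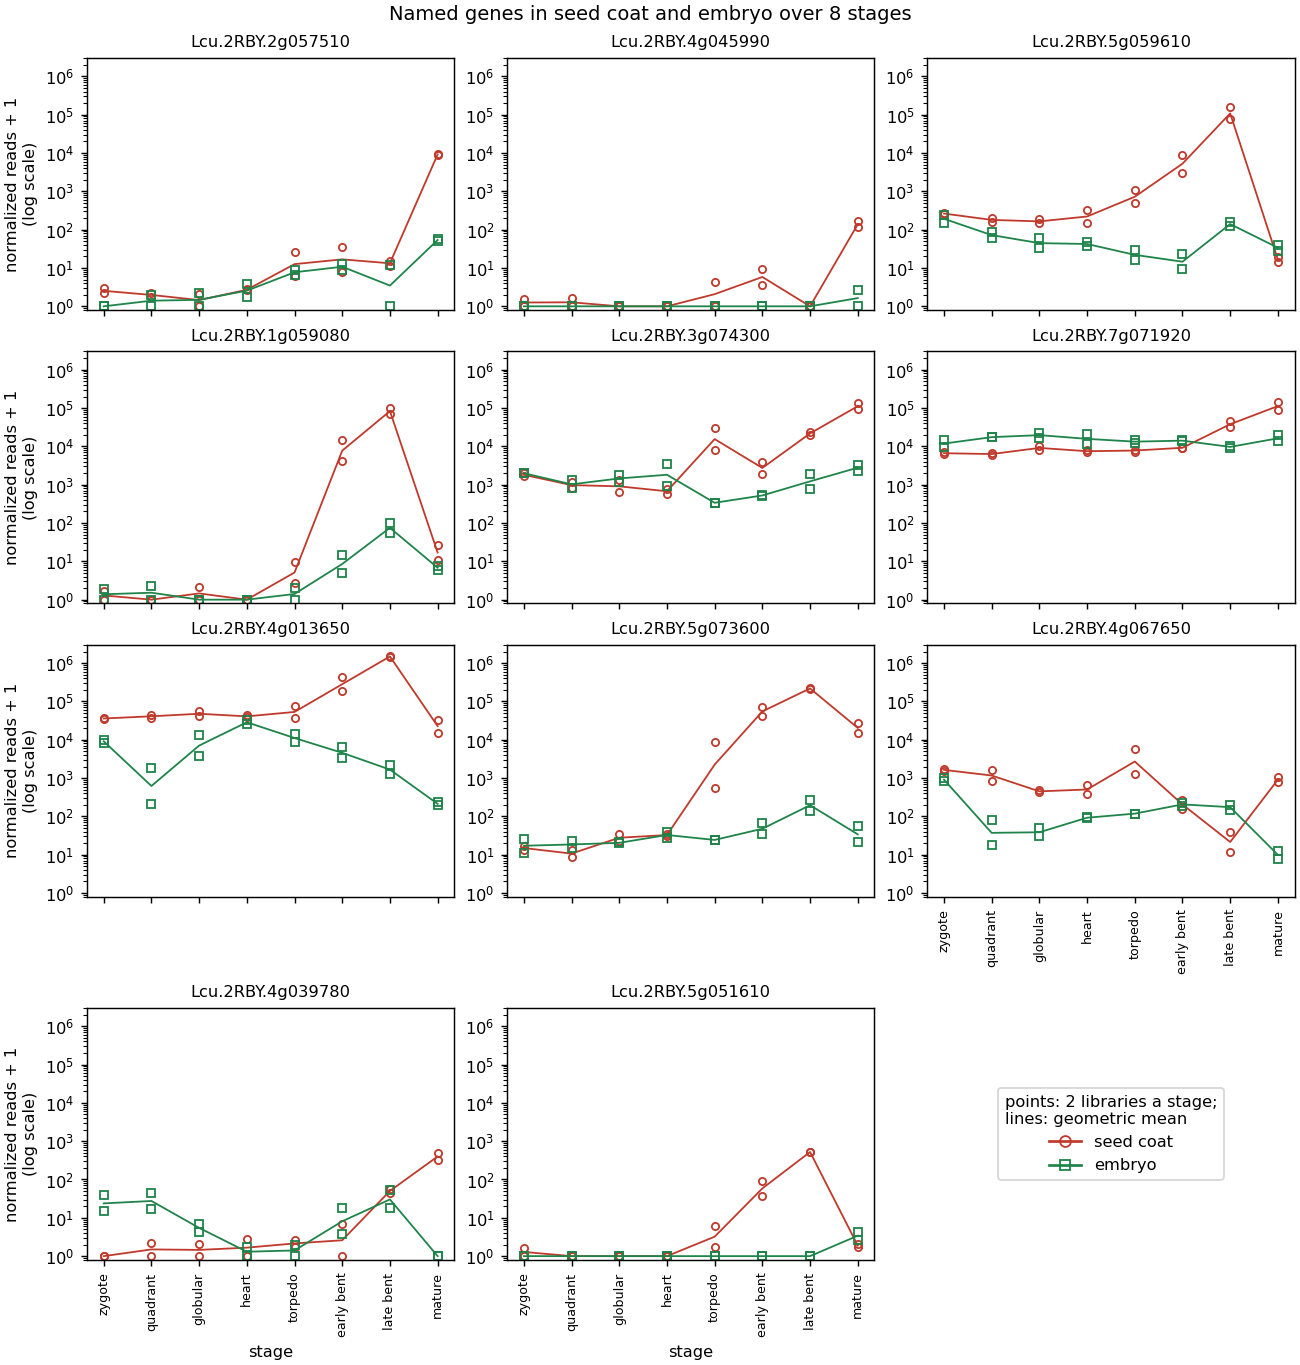
Normalized reads plus 1 (y axis, log scale) of the 11 named genes at 8 stages (x axis), with 2 libraries a stage for seed coat (circles) and embryo (squares) and lines through the geometric means. In seed coat the 5 named fallers peak at late bent and drop at maturity, and Lcu.2RBY.2g057510 leaves the floor at maturity.

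Few risers and fallers crossed between under 10 and at least 100 normalized reads. Of 29440 genes tested, 17 were risers with under 10 in both late bent libraries and at least 100 in both mature libraries. Another 29 were fallers that did the reverse. Of the 17, 1 had 0 reads in both late bent libraries, and of the 29, 0 had 0 reads in both mature libraries. The median of the 17 was 6.12 and 3.72 at late bent and 167 and 181 at maturity. The median of the 29 was 349 and 269 at late bent and 2.85 and 5.45 at maturity. In the late bent and mature embryo 22 of the 29 fallers had means under 10 normalized reads at both stages, against 7 of the 17 risers. Of the 29, 16 had reached a mean of 100 normalized reads at an earlier seed coat stage, and of the 17, 2 had. The rule favours this contrast, since it sets the late bent level high in the 29 and low in the 17. At early bent, the stage before, their medians were 79.9 and 7.79. Shares over all tested genes were not computed for the embryo and earlier-stage counts, so nothing is read from them.

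The fallers were divided by their early level in the seed coat, at set bounds of 10% and 50% of the late bent level. A late-built class of 293 genes had a mean over the zygote to heart stages under 10% of its late bent level. Its median went from 3.87 normalized reads at zygote to 191 in the early bent coat, then to 703 in the late bent coat, and it stood at 48.6 in the mature coat. All 5 fallers named here belong to this class, Lcu.2RBY.4g013650 included, which was well expressed earlier but far below its late bent level. The class held 14.5% and 15.02% of the late bent reads and 1.66% and 1.22% of the mature reads, and Lcu.2RBY.4g013650 alone made up 5.11% and 5.78% of the late bent reads. A long-held class of 781 genes had an early mean of at least 50% of the late bent level. Its median was between 633 and 675 at the zygote to heart stages, 242 at late bent and 55.1 at maturity. It held 3.38% and 2.18% of the late bent reads and 0.907% and 0.836% of the mature reads. The other 295 fallers lay between these bounds. Among all tested genes 10.1% met the rule of the first class and 64.5% that of the second, against 21.4% and 57.0% of the fallers. Fallers were chosen for a late bent level above the mature level, which favours the first class, so nothing is read from these shares.

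Most risers were at their highest in the mature coat. The mature mean lay above those of all 7 earlier stages for 928 of the 1226 risers (75.7%), against 29.5% of all tested genes, a share that the choice of risers favours. The median riser stayed between 40.6 and 87.8 normalized reads over those 7 stages and reached 326 at maturity. The other 298 risers had been as high at a stage before late bent. Of these 298, 100 had their earlier peak at torpedo (33.6%, against 24% of all tested genes), 77 at zygote (25.8%, against 10.9%) and 51 at quadrant (17.1%, against 9.23%). Fewer peaked at early bent (37, or 12.4%, against 37.4%), heart (18, or 6.04%, against 7.62%) and globular (15, or 5.03%, against 10.9%). The 298 had to be as high earlier as at maturity, a rule not put on all tested genes. Risers were also chosen for a low late bent level, which disfavours a peak at early bent, so nothing is read from these shares. The 2 torpedo libraries differed from each other. All 1226 risers together held 3.76% of the reads in torpedo replicate 2 and 1.78% in replicate 1, and fallers held 6.60% and 14.7%. Torpedo replicate 2 was also among the 8 libraries with few genes at 0, and its part in the torpedo peak of the 100 genes was not tested.

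**Figure D3:**
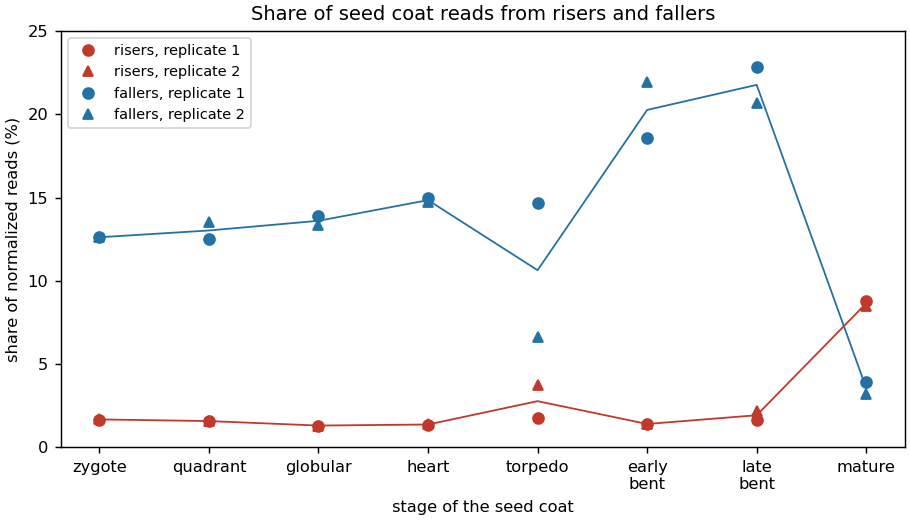
Share of normalized reads (y axis, percent) supplied by the risers and fallers in the 16 seed coat libraries at 8 stages (x axis), with circles for replicate 1, triangles for replicate 2 and lines through the means. Fallers supply 22.9% and 20.7% at late bent and 3.90% and 3.22% at maturity, risers 8.81% and 8.50% at maturity, and torpedo replicate 2 stands apart from replicate 1.

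The embryo passed through the same step in other libraries, which allows the tissues to be set side by side. In embryo 4299 genes rose (14.6% of those tested) and 3669 fell (12.5%). Of the seed coat risers, 324 also rose in embryo (26.4%) and 146 fell there (11.9%). Of the fallers, 444 fell in embryo (32.4%) and 102 rose (7.45%). The long-held fallers fell in embryo in 321 of 781 cases (41.1%) and the late-built fallers in 51 of 293 (17.4%). Late-built fallers had a median of 7.92 normalized reads in the late bent embryo.

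For the 324 risers shared with embryo the median level was 366 normalized reads in the mature seed coat and 306 in the mature embryo, and 182 of them were higher in seed coat. As a guide to embryo RNA in the seed coat libraries, 57 embryo-typical genes were summed. They were abundant in the late bent and mature embryo and under 1% of the embryo level in the early bent seed coat. Their level in the later seed coat was not restricted, so the sum cannot tell embryo RNA from expression in the seed coat itself. They supplied 46.4% and 42.6% of reads in the late bent embryo and 22.5% and 19.03% in the mature embryo. In the seed coat they supplied 0.355% and 0.230% at late bent and 0.104% and 0.131% at maturity, and 0 of the 57 were at 0 in any of the 4 libraries. Their summed level in seed coat was 0.418% and 0.260% of that in embryo at late bent and 0.278% and 0.319% at maturity. Of the 324 shared risers, 26 stood in the mature seed coat under 1% of their embryo level. The part of embryo RNA in their rise was not tested.

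The difference between the 2 steps was tested directly. In 2507 genes the change in seed coat lay above that in embryo (8.52%), and in 2383 it lay below (8.09%). Among these were 486 risers above and 618 fallers below. The test uses the same seed coat libraries, so these counts only describe the risers and fallers. For 718 risers and 725 fallers no difference from the embryo was shown. All 146 risers that fell in embryo and all 102 fallers that rose in embryo passed the test of the difference. Their calls in opposite directions in the same fit made this nearly certain, so nothing is read from it. The number above was 1657 without mature seed coat replicate 2 and 1526 without late bent embryo replicate 1. The number below was 1507 without the 8 libraries with few genes at 0.

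The widest differences between the tissues were of several kinds. Lcu.2RBY.4g067650 moved in opposite directions. In seed coat it rose from 11.01 and 37.2 normalized reads to 777 and 1060 (log2 fold change 5.41, SE 0.62, adjusted p = 3.14e-07), while in embryo it fell from 200 and 150 to 11.6 and 6.74 (log2 fold change -4.14, SE 0.62, adjusted p = 7.65e-06). The difference of the 2 changes was 9.54 (SE 0.88, adjusted p = 1.53e-08). Its seed coat level had been 1759 and 1516 at zygote, so the mature level was a return after a low at late bent. Lcu.2RBY.4g039780 rose in seed coat from 42.8 and 56.8 to 481 and 328, while the embryo went from 50.7 and 16.6 to 0 reads in both mature libraries (difference 7.90, SE 1.24, adjusted p = 2.9e-05).

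On the other side stood Lcu.2RBY.5g059610, whose fall is given above. In embryo it went from 161 and 120 normalized reads to 39.9 and 26.96 (difference -10.63, SE 0.71, adjusted p = 2.26e-11). Lcu.2RBY.5g051610 fell in seed coat from 509 and 533 normalized reads to 1 read in each mature library. The late bent level was 607 times the mature level, and counting error at 95% confidence allows from 168 to 5018 times. In embryo it had 0 reads in both late bent libraries and 1.66 and 3.37 normalized reads at maturity (difference -9.88, SE 0.84, adjusted p = 1.99e-09).

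**Figure D4:**
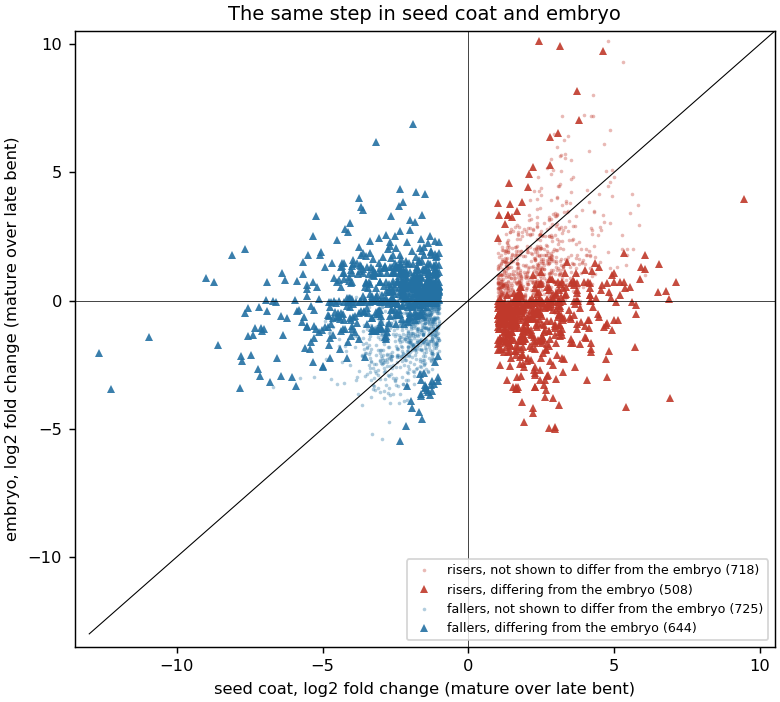
Log2 fold change from late bent to mature in seed coat (x axis) and embryo (y axis) for the 1226 risers and 1369 fallers, with triangles for genes whose 2 changes differ and dots for the others; the diagonal marks equal change. The triangles include 486 risers to the right of the diagonal and 618 fallers to its left.

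The whole seed libraries of the same stages supplied no level to the seed coat contrast, but they entered the same fit, with its filter and its estimate of the spread. In whole seed 2281 genes rose (7.75%) and 2272 fell (7.72%). Of the risers 300 rose there (24.5%) and 50 fell (4.08%), and of the fallers 502 fell (36.7%) and 54 rose (3.94%). The embryo-typical genes supplied 45.4% and 44.8% of the whole seed reads at late bent and 21.7% and 30.4% at maturity, against 46.4% and 42.6%, then 22.5% and 19.03%, in the embryo; the part of embryo RNA in the whole seed values was not tested.

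Genes with little embryo expression were taken separately, namely those with at least 100 normalized reads at 1 of the 2 seed coat stages and with embryo means under 10% of that level at both stages. Of 310 such fallers 228 fell in whole seed (73.5%) and 2 rose, with a median log2 change of -2.67. Of 296 such risers 45 rose (15.2%) and 4 fell, with a median of 0.72. Over all 1931 tested genes of this kind 64 rose (3.31%) and 430 fell (22.3%), with a median of -0.63. Lcu.2RBY.4g013650 went from 132914 and 251636 to 784 and 2845 in whole seed (log2 fold change -6.93, SE 0.76, adjusted p = 1.44e-07). Lcu.2RBY.2g057510 went from 20.1 and 21.4 to 158 and 38.6, which did not pass (log2 fold change 1.87, SE 0.90, adjusted p = 0.154). The count of risers that rose in whole seed was 146 without late bent seed coat replicate 1, 192 without mature seed coat replicate 2 and 183 without mature whole seed replicate 1. The count of fallers that fell was 303 without late bent seed coat replicate 1.

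**Figure D5:**
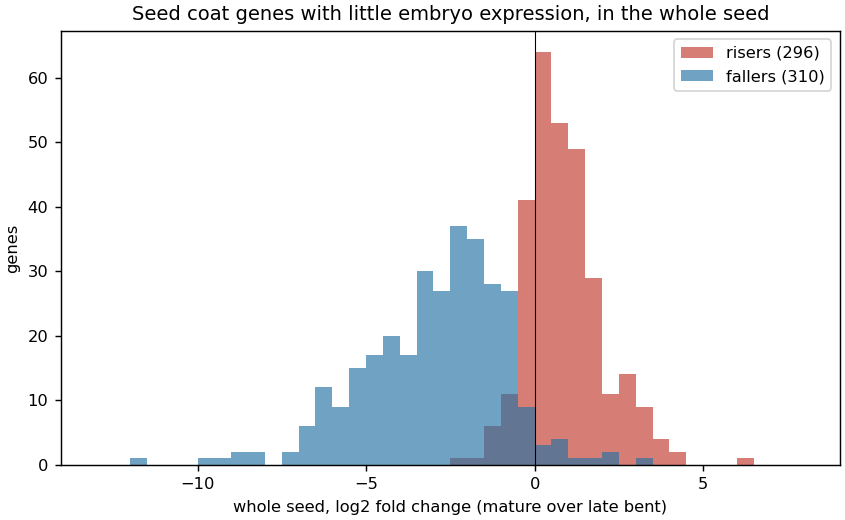
Number of genes (y axis) by their log2 fold change in whole seed from late bent to mature (x axis, bins of 0.5), for the 296 risers and 310 fallers of the seed coat with little embryo expression. Of the fallers 298 lie below 0, and of the risers 236 lie above it.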

How the data were processed

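RNA of 50 libraries (25 groups of 2) was measured. The deposited table holds 1 signal value per gene and library, counts divided by 1 factor per library, made by the authors, per the labels and the values; each value was a whole number of reads within 0.001 reads (100% of values), and the factors match those of the median-of-ratios method in DESeq2. Tools listed without versions, per the submitters' processing notes, were featureCounts, DESeq2, Trimmomatic and CASAVA. The aligner, the genome build and the strand setting were not given in the sources used here. Libraries were made with a low-input kit, per the labels' protocols, so reads are not independent molecules, and intervals and floors cover counting error only. All libraries entered 1 limma fit (3.58.1, R 4.3.3; trend, robust) on log2(normalized reads + 1) with 25 groups and 25 residual degrees of freedom, for genes that reached 10 normalized reads in 2 or more libraries. Fold changes on this scale understate those of low genes. P-values were adjusted by Benjamini-Hochberg over all tested genes. Replicates are not stated to come from separate plants, so the p-values reflect only how far these libraries spread, possibly for technical reasons. No replicate pair of the step agreed within sampling noise (mean chi-square per gene of at least 62.6). Named genes are, among called genes that reached 100 normalized reads in both libraries of their higher stage, the 2 each way with the largest fold, change in reads and difference from embryo. The comparison, the agreement rule and the lists were chosen with earlier results of these data known. Alternatives were edgeR 4.0.16 and DESeq2 1.42.0 on the recovered reads, other scalings, filters, pseudocounts and library weights, and left-out libraries. Fits were tested on simulated data.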

Additional observations from a re-analysis of the deposited data

Results flagged for a closer look

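The step differed between seed coat and embryo in 2507 genes whose change lay above that in embryo and in 2383 genes whose change lay below it, by the limma test of the difference itself. The 4 genes with the widest differences among those called in seed coat were Lcu.2RBY.4g067650 (9.54 on the log2 scale) and Lcu.2RBY.4g039780 (7.90), both higher in seed coat relative to embryo, and Lcu.2RBY.5g059610 (-10.6) and Lcu.2RBY.5g051610 (-9.88), both lower. Each of these 4 kept its direction and its call under all 19 alternatives tried for it. The sizes ranged from 8.13 to 10.4 for Lcu.2RBY.4g067650 and from -11.2 to -10.1 for Lcu.2RBY.5g059610. They ranged wider for Lcu.2RBY.4g039780 (5.07 to 11.2) and Lcu.2RBY.5g051610 (-13.6 to -6.28). Each of the latter had 0 reads in both libraries of an embryo stage. The groups hold 2 libraries each, so no library could be tested for standing apart within its group.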

How the results depend on the processing

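The main counts were 1226 risers, 1369 fallers, 2507 genes above and 2383 below the embryo step, and 300 risers and 502 fallers that moved the same way in whole seed. With no filter there were 2707 risers. With library weights there were 804 risers, 1223 genes above and 1270 below the embryo step. Leaving out 1 of the 4 seed coat libraries at a time gave 669 to 1430 risers and 698 to 1388 fallers, and 1 of the embryo or whole seed libraries of these stages 1215 to 1308 and 1357 to 1423. Leaving out 1 library of either tissue compared gave 1526 to 2786 above, 1629 to 3035 below, 146 to 346 risers and 303 to 517 fallers in whole seed. Without the 8 libraries with few genes at 0, an alternative chosen after seeing the data, there were 721 risers, 832 fallers, 1507 below, and 135 and 304 in whole seed. The cause of these changes was not tested, beyond the loss of samples. TMM scaling gave 981 risers and 1534 fallers, quantile scaling 1273 and 1907, edgeR 1217 and 1386, and DESeq2 1363 and 1571. In these fits 0 genes were called in the opposite direction.

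Whether the replicate numbers pair the samples is not known. The correlation of deviations by number was -0.466, the lowest of 300 pairs of groups, whose median was -0.0016, so late bent replicate 1 deviated with mature replicate 2. Both are among the 8 libraries with few genes at 0, so this correlation cannot show how samples were paired. The replicate block gave 1227 risers and 1366 fallers, and within the 4 libraries 1379 and 1416. Crossed numbers within the 4 libraries, added after seeing the data, gave 2026 and 1776.

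With the embryo-typical genes chosen at under 5% of the embryo level, their seed coat share was 0.393% at late bent and 0.241% at maturity (main 0.293% and 0.117%). The 100 most abundant genes held 30.97% and 23.1% (the top 10, 14.3% and 9.52%). Genes under 5 normalized reads made up 59.4% and 52.3% (at 0, 35.7% and 21.5%). With 2 libraries against 2, an exact permutation test of 1 gene cannot reach p = 0.05, so calls rest on the spread pooled over 25 groups.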

Other observations

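As a sum, seed coat risers held a larger share of the embryo pool at maturity as well. They supplied 0.941% and 1.51% of the normalized reads in the late bent embryo and 6.75% and 6.09% in the mature embryo, and 0.993% and 0.898% in the late bent whole seed against 6.92% and 3.80% in the mature whole seed. Fallers supplied 5.98% and 4.98% in the late bent embryo and 3.39% and 2.74% in the mature embryo. No test was made on these shares, which are sums that abundant genes weigh most in. The median riser stood at 48.3 normalized reads in the late bent embryo and at 62.7 in the mature embryo. Of the 1226 risers 324 rose in embryo (26.4%) and 146 fell (11.9%), against 14.6% and 12.5% of all tested genes.

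Genes with consecutive identifiers at times moved together. Of 696 risers whose next-numbered gene was tested, 63 were followed by another riser (9.05%), where 4.16% of all tested genes were risers. Of 832 such fallers, 58 were followed by another faller (6.97%), against 4.65%. There were 7 runs of 3 consecutive risers and 4 of 3 consecutive fallers, and 0 longer runs. Reads shared between near-identical neighbouring copies would be split by the counting, and their part in this was not tested. By the number or letter that precedes the gene number in the identifier, risers made up between 3.61% and 4.59% of the tested genes and fallers between 4.32% and 5.05%.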
